A study of Macaca fascicularis with 64 samples.

Results

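Fetal brain was compared with fetal muscle at month 4 of gestation in the cynomolgus monkey (Macaca fascicularis), a macaque with a long pregnancy that is used as a model of human development. The comparison holds 4 of the 64 RNA sequencing libraries of the series, 2 of brain and 2 of muscle. They were chosen by their labels, which give the stage, the tissue and a wild-type genotype. All 4 are labelled wild type, and the labels name no treatment. The series as a whole set wild-type monkeys against monkeys lacking SIRT6, a nuclear deacetylase. Of its other libraries, fetal brain and muscle of month 2 and wild-type newborn brain and muscle enter here, only beside month 4. No library of an animal lacking SIRT6 enters. The labels state neither the brain region, the muscle sampled, the sex of a fetus, nor whether libraries 1 and 2 of a tissue came from separate fetuses. P-values therefore reflect the variation among libraries, and part or all of that variation may be technical.

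Fetal brain holds postmitotic neurons, radial glia that divide along the ventricle and glial cells, while vessels and microglia enter from outside. Fetal skeletal muscle holds multinucleated fibres that replace embryonic forms of the contractile proteins by later forms. Among the fibres lie satellite cell precursors, connective tissue fibroblasts, vessels and the axons and Schwann cells of motor nerves. Many proteins exist as a pair of forms made by separate genes, one used in muscle fibres and one in neurons, so the tissues can be compared within a protein family as well as by marker.

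Values are FPKM, in which the fragments of a gene are divided by its length and by the mapped total of the library, so that levels can be compared between genes. The FPKM of all genes summed to 420828 and 469642 in the muscle libraries 1 and 2 and to 326640 and 368938 in the brain libraries 1 and 2, and the 10 highest genes took 16% and 22.2% of it in muscle against 4.98% and 5.46% in brain. FPKM keeps no read depth, so no counting interval can be given. Across genes, Pearson's r of log2(FPKM + 1) was 0.974 between the muscle libraries, 0.975 between the brain libraries and 0.461 to 0.491 between tissues, where genes are not independent replicates. At low values, among the month 4 libraries, those of the same number more often stood at a common ratio of FPKM. Among genes between 0.005 and 0.06 FPKM in both, 39.6% of 318 stood at 1 common ratio between muscle 1 and brain 1 and 28.7% of 397 between muscle 2 and brain 2, within 0.1 on the log2 scale, against 11.8% to 14.1% for the other pairs of month 4 libraries. The month 2 libraries did not show this by number. There the same-numbered pairs of muscle and brain had 13.7% and 13.1%, against 13.5% to 41.9% for the other pairs. The highest of these was between brain 1 and brain 2. Between a month 2 and a month 4 library the share ran from 6.95% to 35.8%, the highest between brain 2 of each month. Brain 2 of month 2 and muscle 2 of month 4 had 32.5%, and brain 1 of month 2 and brain 2 of month 4 had 32%. High shares were therefore not confined to libraries of the same number or the same month. The labels name no batch, and the cause of these shares was not tested.

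The tissues differed in most of the genes measured. Of 13782 genes with a mean of 1 FPKM or more over the 4 libraries, 8249 (59.9%) passed an adjusted p of 0.05 in limma, 5324 (38.6%) of them higher in brain and 2925 (21.2%) higher in muscle. A further 14359 genes lay under the filter and were not tested, 5553 of them listed at 0 in all 4 libraries. Differences of 3 or more on the log2 scale that passed numbered 726 (5.27%) higher in brain and 634 (4.6%) higher in muscle. The libraries of the tissues did not overlap in 11057 genes (80.2%). These shares are the background against which each gene list below is read. An exact permutation test of 2 libraries against 2 cannot go below p = 0.33, so no p-value is given outside the fit over all genes.

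The split of calls between tissues depends on the scaling. The median gene stood 0.33 higher in brain on the log2(FPKM + 1) scale, and 64.5% of the calls were higher in brain. After quantile normalisation, 4045 genes were higher in brain and 4139 higher in muscle (49.4% in brain), and after scaling by the median of ratios 4270 and 3682 (53.7%). Each log2 difference below is brain minus muscle on the log2(FPKM + 1) scale, less the median of 0.33. Its standard error (SE) and adjusted p come from limma, the p before that subtraction, which turned the sign of 0 called genes. A difference of a gene under a few FPKM in one tissue understates the ratio of its levels.

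The largest differences in favour of brain were those of STMN2 and TUBB3. STMN2, a regulator of microtubules in growing axons, had 1312 and 1333 FPKM in the brain libraries and 1.33 and 1.59 FPKM in the muscle libraries, a log2 difference of 8.75 (SE 0.22, adjusted p = 4.6e-08). TUBB3, the neuronal beta tubulin, had 1749 and 2543 FPKM in brain and 2.96 and 4.2 FPKM in muscle, a log2 difference of 8.53 (SE 0.28, adjusted p = 4.6e-08). The brain libraries of both genes lay far above the muscle libraries and close to each other. The 15 genes with the largest differences in favour of brain, among named genes of 5 FPKM or more whose libraries did not overlap, also held TTC9B (8.45), NSG2, a protein of neuronal endosomes (7.78), RTN1, a reticulon of the neuronal endoplasmic reticulum (7.73), and TUBB4A, another neuronal beta tubulin (7.50). SST encodes the interneuron peptide somatostatin, with 449.7 and 517 FPKM in brain and 0.719 and 0.971 FPKM in muscle (7.71). Others of the 15 were VSTM2L (7.36), LY6H (7.34), the proprotein convertase inhibitor PCSK1N (7.19), the calcium sensor hippocalcin, HPCA (7.08), the radial glial fatty acid binding protein FABP7 (7.02), the growth cone protein DPYSL5 (7.0) and the neuronal adhesion protein CADM3. CADM3 was listed at 0 in both muscle libraries and had 296 and 85.7 FPKM in the brain libraries, so its brain libraries differed from each other more than those of the other genes named here.

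The largest differences in favour of muscle included contractile proteins of both fast and slow fibres and enzymes of muscle. MYL1, a light chain of fast myosin, had 5495 and 9152 FPKM in the muscle libraries and 4.32 and 5.96 FPKM in the brain libraries, a log2 difference of -10.52 (SE 0.33, adjusted p = 4.6e-08). MYLPF, the regulatory light chain of fast myosin, had 8455 and 13942 FPKM in muscle and 9.88 and 9.41 FPKM in brain (-10.32). ACTA1, skeletal muscle actin, was the most abundant of these per length, with 16933 and 30897 FPKM in muscle and 22.7 and 33.2 FPKM in brain (-9.98). In each of these 3 genes muscle 2 stood above muscle 1, and both stood far above brain. CKM, the creatine kinase of muscle, had 4479 and 8251 FPKM in muscle and 4.1 and 6.09 FPKM in brain (-10.31). MB, the oxygen store myoglobin, had 1740.3 and 2372 FPKM in muscle and 1.06 and 1.25 FPKM in brain (-10.21). ENO3, the enolase of muscle, had 1592 and 3256 FPKM in muscle and 2.31 and 3.14 FPKM in brain (-9.59). The other genes among the 15 largest differences in favour of muscle were the slow myosin light chain MYL2 (-10.24), the troponins TNNI2 (-10.06), TNNT3 (-10.06), TNNC2 (-9.93), TNNC1 (-9.53) and TNNI1 (-9.31), the intermediate filament desmin, DES (-9.26), the fast calcium pump ATP2A1 (-9.19) and the imprinted Notch ligand homologue DLK1 (-9.20). Both tissues' leading genes are shown by library in the plot of the largest differences.

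**Figure D1:**
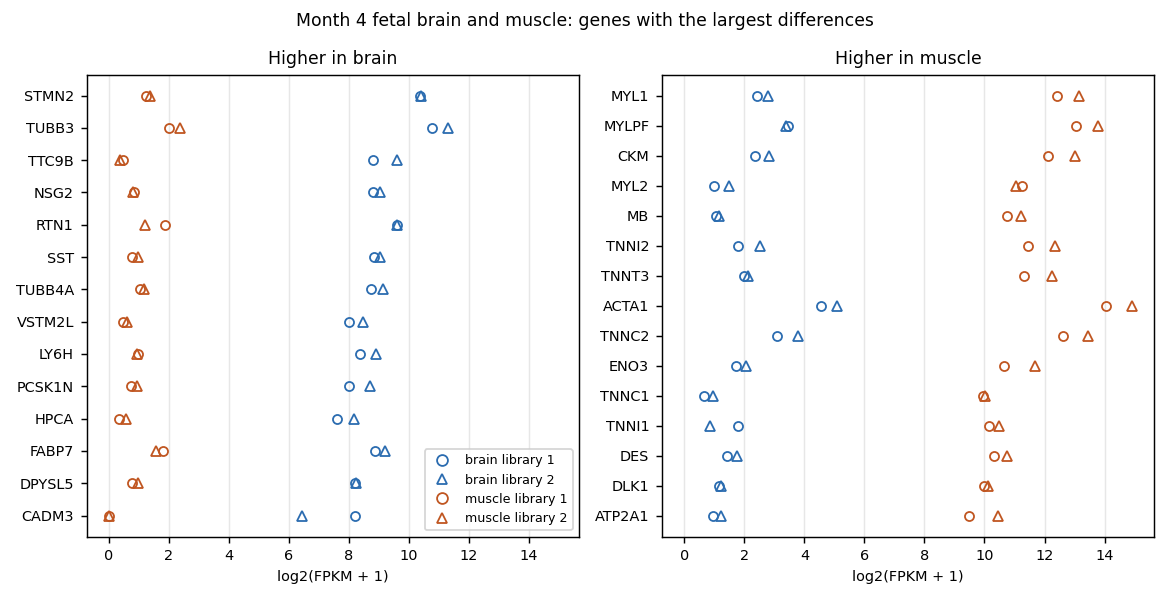
Level of genes with the largest differences in favour of each tissue at month 4, as log2(FPKM + 1) on the horizontal axis, with 1 point per library (circles library 1, triangles library 2, blue brain, orange muscle). In every gene drawn the points of a colour lie apart from those of the other colour, and the widest spread within a tissue is that of CADM3 in brain (296 and 85.7 FPKM).

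Genes of neuronal identity and neuronal RNA binding were almost uniformly higher in brain: 25 of the 26 tested passed in that direction, 0 in the other, with a median log2 difference of 5.36 against 0 over all genes tested. DCX, the doublecortin of migrating neurons, had 75.5 and 47.3 FPKM in brain and 0.315 and 0.29 FPKM in muscle (5.22). UCHL1, a neuronal ubiquitin hydrolase (6.28), GAP43 of growth cones (5.50), and the neuronal intermediate filament INA (6.77) were among the members with the highest levels or largest differences. THY1, a surface protein of neurons and also of fibroblasts, was the member that did not pass, with 85.2 and 104 FPKM in brain and 98.1 and 59.1 FPKM in muscle, where the libraries overlapped. The summed FPKM of the list was 6510 and 7510 in brain and 199 and 160 in muscle. In bulk tissue a smaller number of cells of a type and less RNA per cell cannot be told apart, here or in any list below.

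All 27 tested genes of synaptic vesicles and transmitter release were higher in brain, with a median log2 difference of 4.13. SYP, the vesicle protein synaptophysin, had 219.6 and 249 FPKM in brain and 1.23 and 0.878 FPKM in muscle (6.51). SNAP25, a component of the fusion machinery, had 174 and 172 FPKM in brain and 1.48 and 0.409 FPKM in muscle (6.21). SNCB, beta-synuclein, showed the largest difference of the list, from 0 and 0.119 FPKM in muscle to 127 and 221 FPKM in brain (6.99). The vesicle GTPase RAB3A (5.23), SYNGR3 (4.82), the complexin CPLX2 (6.28) and VAMP2, a vesicle protein that muscle also expressed at 35.6 and 26.6 FPKM (2.81), all passed.

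Postsynaptic receptors and scaffolds were higher in brain in 27 of 28 tested, with a median of 2.89. GRIN1, the obligatory subunit of NMDA glutamate receptors, had 157 and 189 FPKM in brain and 0.359 and 0.552 FPKM in muscle (6.57). The AMPA receptor subunit GRIA1 (5.05), the metabotropic receptor GRM5 (4.96) and the scaffold DLG4 (4.12) were also higher in brain. The calcium kinase subunit CAMK2B was also present in muscle, at 23.3 and 40.1 FPKM against 132 and 151 FPKM in brain (1.84). SHANK3 did not pass, with 31.2 and 26.7 FPKM in brain and 18 and 21.1 FPKM in muscle (0.21, adjusted p = 0.056).

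Of 17 tested genes of GABA interneurons, 16 were higher in brain. The peptides cholecystokinin, CCK, with 134 and 141 FPKM in brain and 2.01 and 1.56 FPKM in muscle (5.31), and neuropeptide Y, NPY, with 75.7 and 172 FPKM in brain and 0.882 and 1.62 FPKM in muscle (5.37), followed somatostatin. The exception was PVALB, a calcium buffer of fast-spiking interneurons and of fast muscle fibres. PVALB had 136 and 505 FPKM in the muscle libraries and 0.254 and 0.468 FPKM in the brain libraries (-7.93, SE 0.49, adjusted p = 1.3e-06). Its muscle libraries differed from each other several-fold, and both lay above brain.

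Sodium and calcium channel genes divided by subunit. Of 26 tested, 19 were higher in brain, 6 were higher in muscle and 1 did not pass. The pore-forming SCN2A of neurons had 42.9 and 24.8 FPKM in brain and 0.103 and 0.0305 FPKM in muscle (4.65), whereas SCN4A, the sodium channel of muscle, had 22.4 and 23.5 FPKM in muscle and 0.093 and 0.0753 FPKM in brain (-4.79). CACNA1S, the voltage sensor of muscle contraction, was higher in muscle (-5.85), while the calcium channels of nerve terminals CACNA1A (3.32) and CACNA1B (3.17), the R-type CACNA1E (3.46) and the T-type CACNA1I (3.10) were higher in brain. Among gamma subunits, CACNG1 (-6.99) and CACNG6 (-4.76) were higher in muscle, and CACNG2 (2.98) and CACNG3 (4.70), which act on AMPA receptors, were higher in brain. The beta subunit CACNB1 (-2.49) was higher in muscle, and CACNB3 (1.98) and CACNB4 (1.91) were higher in brain. SCN4B, an auxiliary sodium channel subunit, did not pass.

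Regulators of the forebrain were among the genes higher in brain. LHX2, with 47.4 and 67.9 FPKM in brain and 0.883 and 0.727 FPKM in muscle (4.67), and EMX1, with 12.4 and 15.5 FPKM in brain and 0 and 0.0348 FPKM in muscle (3.54), specify the cortex. Of the 29 regulators of brain regions on the list, 14 were tested, 9 of them higher in brain and 5 higher in muscle, and 13 were listed at 0 in both brain libraries. OTX2 of the midbrain and diencephalon, EN1 and EN2 of the midbrain and hindbrain border, PAX2, and ATOH1 and PTF1A of the cerebellar germinal zones were among those at 0. ZIC1 (12.8 and 5.83 FPKM) and ZIC2 (15.4 and 5.66 FPKM) were detected in brain, with brain 1 above brain 2. The members higher in muscle were EN1, with 5.11 and 0.863 FPKM in muscle, IRX3 (-2.22), TCF7L2 (-1.55), DBX1, with 2.24 and 3.91 FPKM in muscle and 0 in brain, and PVALB. The EN1 call was lost with no filter (adjusted p = 0.072), without brain 1 (0.093) or without brain 2 (0.1).

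Of 23 tested regulators of cortical projection neurons, 20 were higher in brain and 3 did not pass, with a median of 3.78. After quantile normalisation 20 were higher in brain and 3 higher in muscle, and after scaling by the median of ratios 20 and 2. NEUROD6 had 113 and 117 FPKM in brain and 0.0733 and 0.114 FPKM in muscle (6.40), NEUROD2 differed by 5.43, BHLHE22 by 5.66 and POU3F3 by 5.66. LMO4, which takes part in layer and area identity, differed by 3.78. MEF2C is a transcription factor of both neurons and muscle, and its level was 240.2 and 166 FPKM in brain against 57.6 and 43.4 FPKM in muscle (1.65). NFIB had 13.3 and 12.6 FPKM in brain and 22 and 13.3 FPKM in muscle, NFIA 6.01 and 3.94 and 10.1 and 5.16, and CUX1 3.51 and 2.95 and 4.4 and 3.68, and these did not pass. NFIA and NFIB are expressed in many tissues besides cortex.

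HOX genes, which give cells of the trunk and limbs their position along the body axis, were near absent from brain. Of 39 in the table, 34 were listed at 0 in both brain libraries, and the highest brain value was 0.0692 FPKM. All 17 tested were higher in muscle, with a median of -2.79, and the other 22 lay under the filter with at most 2.08 FPKM. HOXC10, a gene of the lumbar level and the hindlimb, had the highest value, with 16.1 and 20.5 FPKM in muscle. HOXA9 (8 and 7.1 FPKM in muscle), HOXA7 (5.11 and 6.91) and HOXA4 (5.27 and 5.83) followed by mean level, so the highest members came from posterior and from more anterior positions. Other members with values in muscle and 0 in both brain libraries were HOXA10 (5.52 and 4.81 FPKM), HOXA11 (5.28 and 3.85), HOXC9 (4.11 and 4.24), HOXD8 (6.09 and 3.92) and HOXD9 (4.67 and 4.21). The paralogues of the most distal limb, HOXA13 (0.606 and 0.17 FPKM in muscle) and HOXD13 (0.0433 and 0 FPKM), were under 1 FPKM.

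Of 16 tested regulators of limb and trunk mesoderm, 15 were higher in muscle, with a median of -3.19. PRRX1 of limb connective tissue had 36.8 and 21 FPKM in muscle and 0.339 and 0.111 FPKM in brain (-4.89), TBX15 differed by -4.73, MEOX2 by -4.77 and TBX1, a regulator of head muscle, by -4.49. LBX1, which marks migrating limb muscle precursors, had 5.57 and 8.44 FPKM in muscle (-3.26). PITX1, a hindlimb gene, had 2.75 and 3.58 FPKM in muscle, TBX4, another hindlimb gene, 1.04 and 1.23 FPKM, and TBX5, the forelimb counterpart, 0.263 and 0.0942 FPKM, where TBX4 and TBX5 lay under the filter. EYA2 was the member higher in brain (0.53). The EYA2 call was lost after quantile normalisation (adjusted p = 0.076) or without brain 1 (0.059).

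Progenitor and radial glial genes were mixed. Of 22 tested, 15 were higher in brain, 5 were higher in muscle and 2 did not pass, with a median of 1.8. FABP7 had 464 and 591 FPKM in brain and 2.48 and 1.97 FPKM in muscle. SOX2, the transcription factor of neural stem cells, had 40.1 and 50.1 FPKM in brain and 0.586 and 0.25 FPKM in muscle (4.70). The glutamate transporter SLC1A3 (3.94), the outer radial glial gene PTPRZ1 (4.27) and FAM107A (4.45) were also higher in brain. The intermediate filaments used to mark neural progenitors went the other way. NES, nestin, which developing muscle fibres also make, had 133 and 141 FPKM in muscle and 9.5 and 10.3 FPKM in brain (-3.99). VIM, vimentin, which most mesenchymal cells make, had 681 and 545 FPKM in muscle and 176 and 99 FPKM in brain (-2.53). The Notch target HES1 (-2.45) and the Notch ligand DLL1 (-1.56) were higher in muscle as well.

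Astrocyte genes were higher in brain in 10 of 17 tested and higher in muscle in 2, with a median of 0.88. GFAP, the astrocyte intermediate filament, which radial glia of primates also make, had 73.1 and 93.4 FPKM in brain and 0.383 and 0.374 FPKM in muscle (5.59). MLC1 differed by 4.65, SOX9 by 2.40 and CLU, clusterin, by 2.11. The glutamate transporter SLC1A2 had 22.7 and 4.68 FPKM in brain, with brain 1 far above brain 2, against 0.0913 and 0.0971 FPKM in muscle (3.08). NDRG2 (-1.13) and ALDH1L1, a folate enzyme (-1.58), were higher in muscle. The NDRG2 call was lost without muscle 2 (adjusted p = 0.14) or without brain 1 (0.11). The ALDH1L1 call was lost with no filter (adjusted p = 0.063), without muscle 2 (0.061), without brain 1 (0.11) or without brain 2 (0.1). APOE had 438 and 663 FPKM in brain and 328 and 344 FPKM in muscle and did not pass (adjusted p = 0.11).

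Myelin genes were not higher in brain as a group at this age. Of 15 tested genes of the oligodendrocyte lineage and myelin, 5 were higher in brain, 3 were higher in muscle and 7 did not pass. The early lineage factors OLIG2, with 30.9 and 49.2 FPKM in brain and 0.095 and 0 FPKM in muscle (4.93), and OLIG1, with 17.3 and 27 FPKM in brain and 0.844 and 0 FPKM in muscle (3.73), were higher in brain, as was GPR17 of immature oligodendrocytes (2.99). MBP, the myelin basic protein of both central and peripheral myelin, had 113 and 60.1 FPKM in muscle and 9.64 and 20.3 FPKM in brain (-2.80, SE 0.38, adjusted p = 3.9e-04). MAG was also higher in muscle (-1.83). The MAG call was lost without brain 1 (adjusted p = 0.081). The summed FPKM of the 12 Schwann cell and peripheral nerve genes was 1250 and 667 in muscle and 93.8 and 114 in brain. The part of peripheral nerve in the MBP level was not tested.

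Myogenic factors separated the tissues. Of 21 tested genes of myogenic factors and muscle progenitors, 18 were higher in muscle and 3 in brain, with a median of -3.33. MYOD1 had 45.2 and 75.2 FPKM in muscle and 0 and 0.096 FPKM in brain (-6.15), MYOG 25.4 and 34.4 and 0.0552 and 0.0253 (-5.21) and MYF6 49.8 and 60.1 and 0.515 and 0.854 (-5.38). The members higher in brain were NCAM1, a neural adhesion protein (3.34), MEF2C and MEF2A, with 22.9 and 17.8 FPKM in brain and 11.5 and 9.61 FPKM in muscle (0.55). The MEF2A call was lost after quantile normalisation (adjusted p = 0.071), without muscle 2 (0.058) or without brain 1 (0.1).

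Myosin heavy chains, the motors of the sarcomere, were present in muscle as a mixture of developmental and adult forms. The embryonic MYH3 had 993 and 696 FPKM in muscle and 1.56 and 1.9 FPKM in brain (-8.58), and the perinatal MYH8 had 173 and 165 FPKM in muscle and 0.261 and 0.311 FPKM in brain (-7.37). The adult fast forms MYH1, with 516 and 1082 FPKM in muscle (-9.14), and MYH2, with 557 and 852 FPKM in muscle (-9.08), stood above MYH8 in each muscle library. The adult fast form MYH4 had 27.8 and 378 FPKM in muscle 1 and muscle 2 in that order, so the muscle libraries differed by more than in any other sarcomeric myosin gene named here, while brain had 0.205 and 0.272 FPKM (-6.73). The extraocular form MYH13 had 3.41 and 9.46 FPKM in muscle, the cardiac form MYH6 2.6 and 4.32 FPKM, and MYH7B 31.1 and 60.02 FPKM. MYH7, the main form of slow fibres, was not among the list members with values, so its level is not given. Of 12 tested heavy chains, 11 were higher in muscle, the smooth muscle MYH11 and the non-muscle MYH9 and MYH14 among them. MYH10, the non-muscle form of neurons and other cells, was higher in brain, with 30.2 and 26.6 FPKM against 22.1 and 8.6 FPKM (0.65). The MYH10 call was lost with a pseudocount of 0.1 (adjusted p = 0.054), with no filter (0.15), after quantile normalisation (0.22), after median of ratios scaling (0.13), without muscle 2 (0.31), without brain 1 (0.24) or without brain 2 (0.18).

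Of 13 tested myosin light chains and myosin binding proteins, 12 were higher in muscle and 1 did not pass, with a median of -6.94. MYL2 and MYL3 are used in slow fibres and in the ventricle of the heart. MYL3 had 303 and 393 FPKM in muscle and 0.137 and 0.536 FPKM in brain (-8.36), and MYL2 had 2421 and 2131 and 0.984 and 1.82. Binding protein MYBPC1, of slow fibres, had 717 and 731 FPKM in muscle (-8.37), and MYBPC2, of fast fibres, 132 and 364 FPKM (-7.57). The cardiac MYBPC3 and the atrial MYL7 lay under the filter. MYL6, the light chain of non-muscle myosin, did not pass, with 62.6 and 84.9 FPKM in brain and 66.5 and 52.7 FPKM in muscle.

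The troponins, which switch contraction on with calcium, were higher in muscle in the forms of both fast and slow fibres. The fast forms TNNC2 (6261 and 11212 FPKM in muscle), TNNI2 (2788 and 5197) and TNNT3 (2577 and 4862) stood above the slow forms TNNC1 (989 and 1047), TNNI1 (1127 and 1427) and TNNT1 (820.3 and 1130.2) per gene length in each muscle library. The cardiac TNNT2 had 4.05 and 4.61 FPKM in muscle and 2.03 and 0.0908 FPKM in brain (-1.88), and the cardiac TNNI3 was higher in brain, with 3.01 and 5.89 FPKM against 0.743 and 0.837 FPKM (1.23). The TNNT2 call was lost with no filter (adjusted p = 0.078), without muscle 2 (0.059) or without brain 2 (0.095). Of 12 tested troponins and tropomyosins, 10 were higher in muscle, TPM4 did not pass, and the median was -7.74. TPM2 differed by -8.18, TPM1 by -5.51 and TPM3 by -2.29.

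Genes of the thin filament, titin and the Z-disc were higher in muscle in 40 of 45 tested, with a median of -5.65. Titin, TTN, the molecular spring of the sarcomere, had 45.6 and 50.3 FPKM in muscle and 0.281 and 0.171 FPKM in brain (-5.65), and nebulin, NEB, 91.6 and 95.6 and 0.13 and 0.0785 (-6.75). The Z-disc genes LDB3 (-8.78) and MYOZ1 (-8.84) and the fast-fibre actinin ACTN3, with 234 and 722 FPKM in muscle (-8.44), had the largest differences after actin. Cardiac actin ACTC1, an early form in skeletal muscle, had 572 and 394 FPKM in muscle (-7.46). The cytoplasmic actin ACTG1 was higher in brain, with 1305 and 1504 FPKM against 486 and 401 FPKM (1.34), and ACTB did not pass, with 1348 and 1747 and 1246 and 962 FPKM. The ACTG1 call was lost without muscle 1 (adjusted p = 0.1) or without muscle 2 (0.16). TMOD2, the neuronal tropomodulin (3.69), and NEBL (2.27) were the other members higher in brain. TMOD4 of muscle differed by -6.17. In the summed FPKM of the list, muscle 2 (39300) stood above muscle 1 (24900), and brain had 2890 and 3470. ACTA1 alone gave 30897 FPKM of the sum in muscle 2 and 16933 FPKM in muscle 1.

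Excitation-contraction coupling genes were higher in muscle in 25 of 29 tested and higher in brain in 1, with a median of -5.19. ATP2A1 had 712 and 1384 FPKM in muscle and 0.945 and 1.36 FPKM in brain. The calcium store protein CASQ1 differed by -8.90, JSRP1 by -7.26 and sarcolipin, SLN, a regulator of the calcium pump, by -5.73, with 1479 and 2193 FPKM in muscle and 40.8 and 42.7 FPKM in brain. RYR2, the calcium release channel of heart and brain, was the member higher in brain (3.19 and 2.52 against 0.494 and 0.138 FPKM, 1.23), and RYR3, with 2.09 and 1.21 and 1.45 and 0.55 FPKM, did not pass.

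At the neuromuscular junction, 10 of 12 tested genes were higher in muscle. The fetal acetylcholine receptor subunit CHRNG had 19.5 and 22.7 FPKM in muscle and 0.0453 and 0.0867 FPKM in brain (-4.70). The adult subunit CHRNE, which replaces it, had 3.19 and 5.7 FPKM in muscle and 1.95 and 2.37 FPKM in brain (-1.08). CHRNG therefore stood above CHRNE per gene length in each muscle library. The CHRNE call was lost with a pseudocount of 0.1 (adjusted p = 0.057), with no filter (0.12), without muscle 2 (0.26), without brain 1 (0.25) or without brain 2 (0.15). The receptor clustering proteins RAPSN (-5.25) and DOK7 (-4.33) were higher in muscle, whereas AGRN, the nerve-derived agrin, was higher in brain, with 106 and 101 FPKM against 44.7 and 30.2 FPKM (1.14). LRP4, the agrin receptor, did not pass. The dystrophin complex and muscle membrane list was higher in muscle in 16 of 18 tested, with SGCA (-6.95) and CAV3 (-6.68) at the largest differences.

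**Figure D2:**
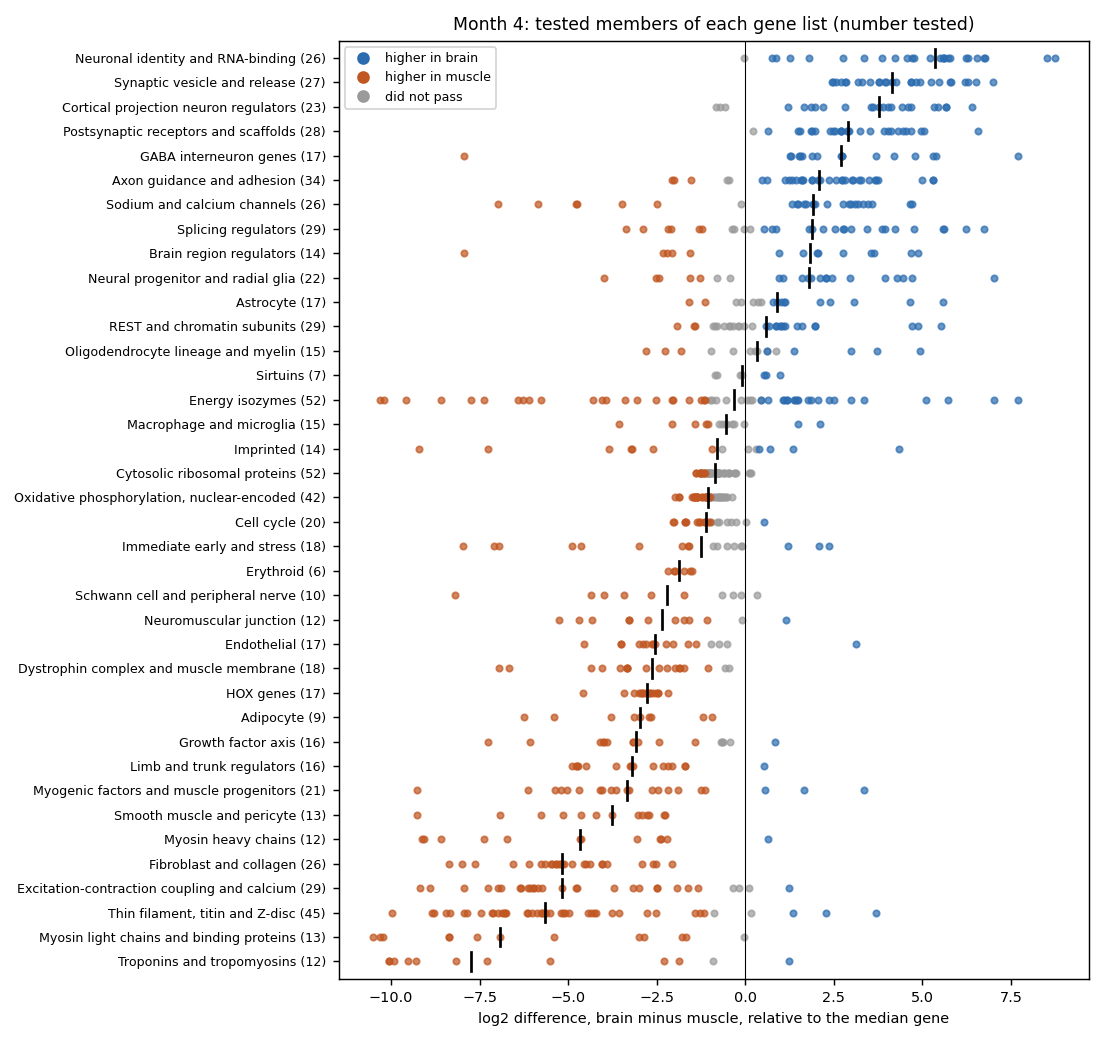
Log2 difference of brain minus muscle at month 4, relative to the median gene, for each tested member of each list (blue higher in brain, orange higher in muscle, grey did not pass), with the median of the list as a black bar and the number tested in brackets. Neuronal and synaptic lists lie to the right with medians of 5.36 and 4.13, sarcomere lists to the left with medians down to -7.74, and isozyme and channel lists spread over both sides.

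Energy metabolism genes were called in both directions. Of 52 tested genes, 21 were higher in brain, 22 were higher in muscle and 9 did not pass, with a median of -0.33, against 38.6% and 21.2% of all genes. The pairs of alternative forms described here were chosen because they were called in opposite directions. Creatine kinase was CKM in muscle and CKB, with 330.1 and 505 FPKM in brain and 47.6 and 19.99 FPKM in muscle (3.35), in brain, and its mitochondrial forms were CKMT2 (-6.29) in muscle and CKMT1A (5.11) in brain. Enolase was ENO3 in muscle and ENO2, with 169 and 183 FPKM in brain and 1.89 and 1.51 FPKM in muscle (5.71), in brain, while the general ENO1 did not pass. Phosphoglycerate mutase was divided as PGAM2 (-7.74) and PGAM1 (1.49), glycogen phosphorylase as PYGM (-7.39) and PYGB (1.40), phosphofructokinase as PFKM (-2.07) and PFKP (1.86), and AMP deaminase as AMPD1 (-6.41) and AMPD2 (1.36). In each of these 4 pairs the first was higher in muscle and the second in brain. The same held for the subunits of cytochrome oxidase COX6A2 (-8.60) and COX6A1 (1.45), and COX7A1 (-5.77) and COX7A2 (1.17), and for the ADP/ATP carriers SLC25A4 (-2.52) and SLC25A5 (0.64). The SLC25A5 call was lost without muscle 2 (adjusted p = 0.053) or without brain 2 (0.065). The plot of paired isoforms gives their levels by library.

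**Figure D3:**
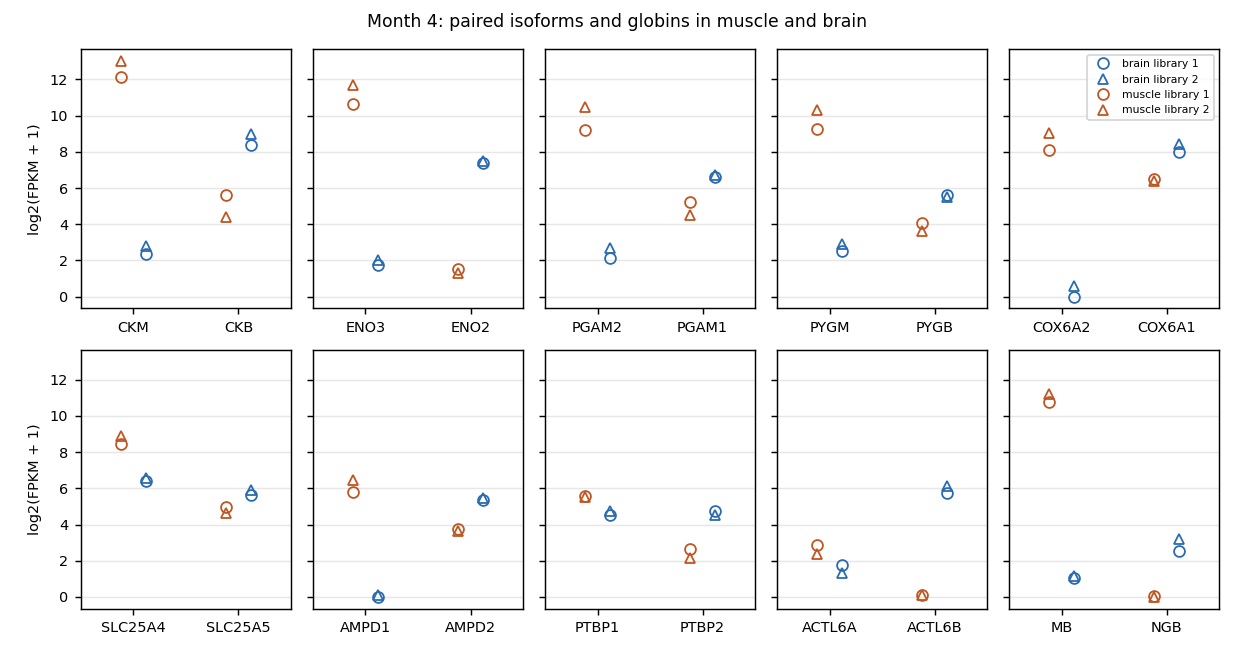
Levels of 10 pairs of genes at month 4 as log2(FPKM + 1) on a common vertical axis, with 1 point per library (orange muscle, blue brain, circles library 1, triangles library 2). The orange points lie above the blue points in the left gene of each pair and below them in the right gene, as for CKM (4479 and 8251 against 4.1 and 6.09 FPKM) and CKB (47.6 and 19.99 against 330.1 and 505 FPKM).

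Genes of fuel transport were also called in both directions. SLC2A4, the insulin-dependent glucose transporter, had 52.2 and 71.9 FPKM in muscle and 0.174 and 0.0955 FPKM in brain (-6.11), while SLC2A1 of the blood-brain barrier (1.18) and SLC2A3 of neurons (1.76) were higher in brain. Hexokinase was higher in brain as HK1 (1.08) and higher in muscle as HK2 (-1.58). The SLC2A1 call was lost without brain 1 (adjusted p = 0.094). LDHA, the lactate dehydrogenase subunit of muscle, had 285 and 384 FPKM in muscle and 47.2 and 51.3 FPKM in brain (-3.05), and LDHB did not pass, with 108 and 103 and 138 and 149.6 FPKM. Of the globins in this list, myoglobin was in muscle and neuroglobin, NGB, in brain, with 4.76 and 8.09 FPKM against 0.0583 and 0 FPKM (2.49). The beta subunits of the sodium pump ATP1B1 (2.36) and ATP1B2 (2.99) were higher in brain.

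Splicing regulators were higher in brain in 19 of 29 tested, higher in muscle in 6, and did not pass in 4. The neuronal ELAVL3 (6.24), CELF3 (6.74), CELF4 (5.58) and CELF5 (5.62) had the largest differences, and RBFOX3, the antigen NeuN, had 21.5 and 30.7 FPKM in brain and 0 and 0.301 FPKM in muscle (4.22). Among paralogues, PTBP1 had 46.3 and 44.5 FPKM in muscle and 22.2 and 25.8 FPKM in brain (-1.22), and PTBP2, the neuronal form, 5.27 and 3.53 and 25.6 and 21.7 (1.87). RBM38 (-3.36), RBM24 (-2.09) and RBM20, which acts on titin (-2.90), and the muscleblind genes MBNL1 (-2.17) and MBNL2 (-1.31) were higher in muscle. The MBNL2 call was lost with no filter (adjusted p = 0.066), without muscle 1 (0.13), without brain 1 (0.061) or without brain 2 (0.18).

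REST and chromatin remodelling subunits were higher in brain in 15 of 29 tested, higher in muscle in 3, and did not pass in 11. The neuron-specific BAF subunit ACTL6B had 53.2 and 70.00 FPKM in brain and 0.0619 and 0.0877 FPKM in muscle (5.52), and its counterpart of dividing cells, ACTL6A, 2.44 and 1.48 and 6.3 and 4.23 (-1.41). DPF1 (4.87) and CHD5 (4.71) were also far higher in brain. REST, the repressor of neuronal genes, had 3.55 and 2 FPKM in muscle and 0.834 and 0.589 FPKM in brain (-1.44). SMARCD2 was the third member higher in muscle (-1.92), and CHD4 and SMARCE1, general subunits, did not pass. The ACTL6A call was lost without muscle 1 (adjusted p = 0.056) or without brain 2 (0.13). The REST call was lost without brain 2 (adjusted p = 0.066). With the other scalings 6 and 7 members were higher in muscle in place of 3.

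Axon guidance and adhesion genes were higher in brain in 29 of 34 tested, with a median of 2.08. CNTN1 (5.30), CHL1 (4.99) and the repellent SLIT1, with 54.6 and 52.2 FPKM in brain and 0.0354 and 0.149 FPKM in muscle (5.31), had the largest differences. SEMA3C (-2.07), its receptor NRP1 (-2.01) and NTN1, netrin (-1.54), which also act in vessels and mesenchyme, were higher in muscle. The SEMA3C call was lost without brain 2 (adjusted p = 0.067). The NTN1 call was lost with no filter (adjusted p = 0.067), without muscle 1 (0.059), without brain 1 (0.053) or without brain 2 (0.15). In each tissue 33 of the 34 genes were higher in library 1 than in library 2. The sums were 652 and 503 FPKM in brain and 120 and 67.5 FPKM in muscle. The share over all genes was not taken, so a shift of this list and one of the whole library cannot be told apart. Of 53 ribosomal protein genes, 19 in muscle and 0 in brain were higher in library 1.

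Connective tissue genes were abundant in muscle. All 26 fibroblast and collagen genes were higher in muscle, with a median of -5.19. COL1A1, the main chain of type I collagen, had 6753 and 4128 FPKM in muscle and 55.1 and 6.04 FPKM in brain (-8.38), COL3A1 3133 and 1341 and 36.9 and 3.45 (-7.63) and SPARC 1826 and 832 and 54.2 and 25.4 (-5.34). The summed FPKM of the list was 19700 and 10500 in muscle and 408 and 124 in brain. In both tissues library 1 was the higher of the pair in 25 of the 26 genes, where the share over all genes was again not taken. Smooth muscle and pericyte genes, all 13 higher in muscle, showed a like unevenness, with TAGLN at 604 and 96 FPKM and ACTA2 at 607 and 149.6 FPKM in muscle 1 and muscle 2. Their sums were 3330 and 2550 FPKM in muscle and 67.9 and 33.5 in brain. These sums include desmin, DES, which skeletal fibres also make, with 1287 and 1713 FPKM in muscle 1 and muscle 2. DES thus ran opposite to TAGLN and ACTA2 between the muscle libraries. In summed FPKM muscle 1 thus stood above muscle 2 for connective tissue genes and under it for the thin filament and Z-disc list. The latter order rested largely on ACTA1, with 16933 and 30897 FPKM in muscle 1 and muscle 2, and 22 of the 45 genes of that list were higher in muscle 1. The part of these library differences in other differences was not tested.

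Endothelial genes were higher in muscle in 13 of 17 tested, with PECAM1 at 51.3 and 43.4 FPKM in muscle and 4.9 and 3.82 FPKM in brain (-3.50) and CDH5 at -3.50. MFSD2A, the lipid transporter of brain endothelium, was the member higher in brain, with 12.8 and 13.8 FPKM against 0.508 and 0.142 FPKM (3.12). CLDN5, the tight junction claudin, did not pass, with 27.2 and 30.6 FPKM in brain and 36.6 and 40.3 FPKM in muscle. Macrophage and microglial genes were low in both tissues, with sums of 117 and 109 FPKM in muscle and 67.7 and 93.8 FPKM in brain. Of 15 tested, 5 were higher in muscle, 2 were higher in brain and 8 did not pass. The 2 higher in brain were the microglial receptors P2RY12, with 5.38 and 5.67 FPKM against 0.245 and 0.15 FPKM (2.12), and CX3CR1, with 3.98 and 4.33 against 0.486 and 0.452 (1.48). TMEM119, used as a microglial marker in adult brain, was higher in muscle (22.5 and 11.3 against 0.72 and 0.84 FPKM, -3.58), and LYVE1 of tissue macrophages was also higher there (-2.07).

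Adipocyte genes were higher in muscle in 9 of 9 tested, with FABP4 at 57.6 and 66.4 FPKM in muscle and 0 and 0.0541 FPKM in brain (-6.26) and the fat hormone ADIPOQ at 5.7 and 7.31 FPKM in muscle (-3.15). Erythroid genes were higher in muscle in 6 of 6 tested, and HBB, the adult beta globin, had 9.7 and 6.29 FPKM in muscle and 3.3 and 0.746 FPKM in brain (-2.02). The HBB call was lost with no filter (adjusted p = 0.055) or without brain 2 (0.084). The sums of the erythroid list were 47.6 and 46.4 FPKM in muscle and 16.9 and 9.31 FPKM in brain, and HBA1 and HBG1 were not analysed here. Of the marker genes of heart and cartilage, the atrial peptide NPPA was listed at 0 in both muscle libraries and had 8.41 and 9.38 FPKM in brain, and COL2A1, the collagen of cartilage, had 12.1 and 18.5 FPKM in muscle and 0.886 and 0.503 FPKM in brain.

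Growth factor genes were led by IGF2, the imprinted fetal growth factor, with 2242 and 2415 FPKM in muscle and 42.6 and 7.21 FPKM in brain (-7.27, SE 0.62, adjusted p = 1.2e-05). The brain libraries of IGF2 differed several-fold, with brain 1 the higher, and both lay far under muscle. Of 16 tested genes of this axis, 11 were higher in muscle and 1 in brain, with a median of -3.09. The type 2 receptor IGF2R (-3.02) and the binding proteins IGFBP3 (-3.98), IGFBP4 (-3.92), IGFBP5 (-2.44), IGFBP6 (-6.08) and IGFBP7 (-3.16) were higher in muscle. The type 1 receptor IGF1R was higher in brain (0.84), and IGFBP2 did not pass, with 119 and 148 FPKM in brain and 163 and 175 FPKM in muscle. The IGF1R call was lost without muscle 2 (adjusted p = 0.051) or without brain 1 (0.097). Myostatin, MSTN, the brake on muscle growth, had 13.7 and 11.8 FPKM in muscle and was listed at 0 in both brain libraries.

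Imprinted genes, which are expressed from 1 parental copy, were not of 1 kind. Of 14 tested, 7 were higher in muscle, 4 in brain and 3 did not pass. DLK1 had 1008 and 1118 FPKM in muscle and 1.23 and 1.32 FPKM in brain, CDKN1C differed by -3.86, MEST by -2.60 and PLAGL1 by -3.24. NNAT, neuronatin, had 152 and 173 FPKM in brain and 4.68 and 6.4 FPKM in muscle (4.33), and SNRPN (1.34), NDN (0.70) and MAGEL2 (0.38) were higher in brain. The NDN call was lost after median of ratios scaling (adjusted p = 0.061) or without muscle 1 (0.052). The MAGEL2 call was lost with no filter (adjusted p = 0.083), after quantile normalisation (0.15), after median of ratios scaling (0.083), without muscle 2 (0.15), without brain 1 (0.069) or without brain 2 (0.13).

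Of the 7 sirtuins, the family of the gene targeted in the newborn animals, 3 were higher in brain, against 38.6% of all genes tested. Their median log2 difference was -0.1, against 0 over all genes tested, and the count depended on the scaling. SIRT6 had 10.5 and 19.8 FPKM in brain and 7.7 and 7.26 FPKM in muscle (0.54, SE 0.29, adjusted p = 0.028). SIRT2, with 46.7 and 63.7 FPKM in brain and 26.5 and 30.8 FPKM in muscle (0.58), and SIRT7, with 7.51 and 9.86 and 3.02 and 2.79 (0.97), were also higher in brain, and the other 4 of 7 did not pass. The SIRT6 call was lost with no filter (adjusted p = 0.097), after quantile normalisation (0.26), after median of ratios scaling (0.14), without muscle 1 (0.077), without muscle 2 (0.12) or without brain 2 (0.29). The SIRT2 call was lost after median of ratios scaling (adjusted p = 0.091), without muscle 1 (0.054) or without brain 2 (0.082). After quantile normalisation 2 of the 7 were higher in brain and 2 higher in muscle, and after scaling by the median of ratios 1 and 2.

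Mitochondrial and ribosomal groups depended on the scaling. Of 42 nuclear genes of oxidative phosphorylation, 21 were higher in muscle, 0 in brain and 21 did not pass, with a median of -1.06. The other scalings gave 28 and 32 higher in muscle. COX4I1 had 474 and 704 FPKM in muscle and 234 and 337 FPKM in brain (-1.37). The COX4I1 call was lost with no filter (adjusted p = 0.095), after quantile normalisation (0.065), without muscle 1 (0.079), without muscle 2 (0.26) or without brain 1 (0.15). Of 52 cytosolic ribosomal protein genes, 8 were higher in muscle, 0 in brain and 44 did not pass, with a median of -0.86. That direction was not kept after quantile normalisation, where 12 were higher in brain and 3 higher in muscle, while scaling by the median of ratios gave 0 and 20. Cell cycle genes were higher in muscle in 12 of 20 tested and in brain in 1, MCM4 (0.53). AURKB (-2.02) and UBE2C (-2.05), which act in mitosis, were among those higher in muscle. The MCM4 call was lost after quantile normalisation (adjusted p = 0.07), without muscle 2 (0.055), without brain 1 (0.097) or without brain 2 (0.082).

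Stress and immediate early genes were led by the small heat shock proteins of muscle. HSPB6 had 1339 and 1760.1 FPKM in muscle and 5.47 and 8.11 FPKM in brain (-7.97), HSPB1 differed by -4.64, HSPB7 by -6.96 and CRYAB, alpha B crystallin, by -4.89. HSP90AA1 (1.20), HSPH1 (2.07) and the activity-dependent EGR3 (2.37) were higher in brain. The immediate early genes JUN and EGR1 did not pass, with 29 and 37 and 49.6 and 28.3 FPKM for JUN and 9.02 and 9.76 and 19.3 and 10.8 FPKM for EGR1 in brain and muscle. Of 18 tested, 9 were higher in muscle, 3 in brain and 6 did not pass.

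The same tissues at month 2 of gestation, in the same table and sharing no library with month 4, were compared next. At month 2, 10124 of 13523 genes tested (74.9%) passed, 6656 (49.2%) higher in brain and 3468 (25.6%) higher in muscle. Of genes tested at both months, 4516 were higher in brain at both, which is 88.5% of those at month 4 and 69.2% of those at month 2. Higher in muscle at both were 2143, or 81.4% and 65.7%. The difference between the months was tested as the difference of the 2 tissue differences over all 8 libraries, less its median of -0.08. Of 13742 genes, 1923 (14%) passed, 1015 (7.39%) with a higher brain minus muscle difference at month 4 and 908 (6.61%) with a lower one. Leaving out 1 library changed these counts by more than 1.5 times. Without muscle 1 of month 2 they were 226 and 215, without muscle 2 of month 2 they were 234 and 180, without muscle 1 of month 4 they were 544 and 408 and without brain 2 of month 4 they were 379 and 269, and without brain 1 of month 2 they were 768 and 552.

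The brain minus muscle difference shifted between the months in both directions. Of the genes higher in brain at month 4, 462 had shifted towards brain since month 2 and 184 towards muscle. Of those higher in muscle, 382 had shifted towards muscle and 167 towards brain. The month 4 libraries enter both the call and the shift. Choosing genes by that call favours a shift towards the tissue called, so no conclusion is drawn from the balance of these counts. The order of the tissues was opposite at the months in 114 genes that passed at each month and in the difference of differences, and in 110 of these it was opposite also relative to the median gene, 56 of them higher in brain at month 4 and 54 higher in muscle. Some of these lay close to the median gene at one of the months.

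**Figure D4:**
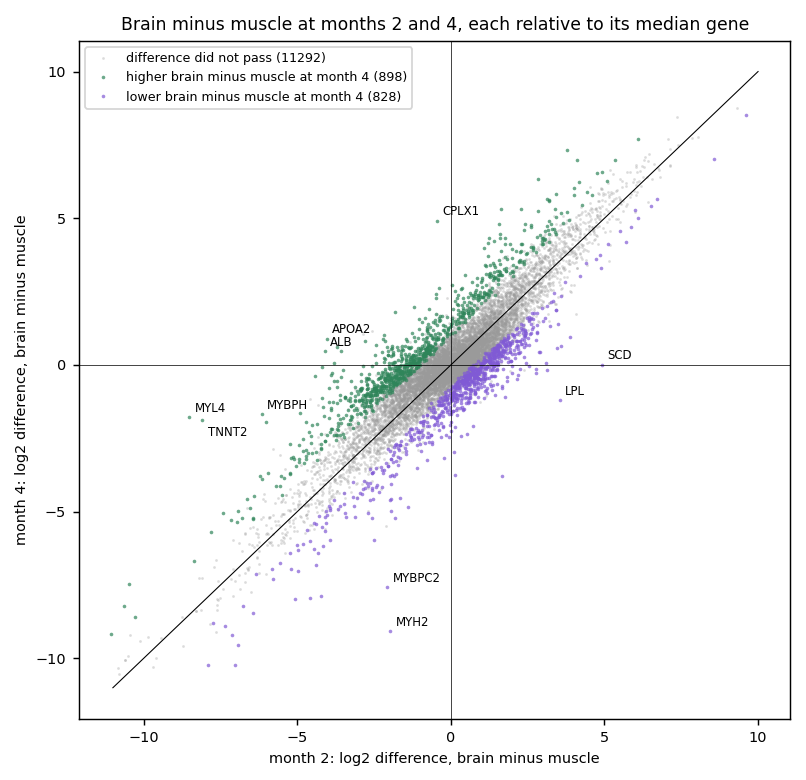
Log2 difference of brain minus muscle at month 2 (horizontal) and month 4 (vertical), each relative to its median gene, for the 13018 genes tested at both months and together. Genes whose difference of differences passed are green (898, higher at month 4) or purple (828, lower at month 4), the diagonal marks equal differences, and some of the genes described below are labelled.

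The largest shifts towards muscle from month 2 to month 4 were those of fast adult myosins. MYH1 had 0.187 and 0.196 FPKM in muscle at month 2 and 516 and 1082 FPKM at month 4, against 1.1 and 0.0352 and 0.413 and 0.951 FPKM in brain, a difference of differences of -9.04 (SE 0.55, adjusted p = 5.6e-05). MYH2 had 2.8 and 2.58 FPKM in muscle at month 2 and 557 and 852 FPKM at month 4 (-7.17, adjusted p = 3.6e-05). MYH4 had 0.232 and 0.268 FPKM in muscle at month 2 and 27.8 and 378 FPKM at month 4 (-6.19, adjusted p = 0.012). MYH1 and MYH2 stood under 3 FPKM in each month 2 muscle library and far above that in each month 4 library, while MYH4 rested more on muscle 2. The call of MYH4 was lost with no filter (adjusted p = 0.069), without brain 2 of month 4 (adjusted p = 0.054) or without either muscle library of month 2 (adjusted p = 0.061 and 0.06). The fast binding protein MYBPC2 had 2.37 and 2.86 FPKM in muscle at month 2 and 132 and 364 FPKM at month 4 (-5.56), and the myofibril assembly protein NRAP 0.667 and 0.459 and 71.6 and 67.8 (-5.38). GADL1, an enzyme of beta-alanine synthesis, had 0.24 and 0.464 FPKM and 11.5 and 12 FPKM in muscle (-3.76).

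The largest shifts away from muscle were those of MYL4 and TNNT2. MYL4, the embryonic and atrial light chain, had 324 and 272 FPKM in muscle at month 2 and 3.23 and 1.96 FPKM at month 4 (6.66, SE 0.33, adjusted p = 1.8e-05). TNNT2, cardiac troponin T, had 320.1 and 318 and 4.05 and 4.61 (6.15, adjusted p = 3.6e-04). MYBPH (51.8 and 60.9 and 1.72 and 2.79 FPKM, 4.41) and MYL5 (35.5 and 24.5 and 0.356 and 0.469 FPKM, 4.26) had the same course. In each of these 4 genes both month 4 muscle libraries lay far under both month 2 muscle libraries. ACTC1 went from 3093 and 2340.1 to 572 and 394 FPKM (2.96), and embryonic MYH3 from 2438 and 2251 to 993 and 696 FPKM (1.63, adjusted p = 0.039), and both stayed far above brain. The MYH3 shift was lost on leaving out any 1 of 7 of the 8 libraries, all but brain 1 of month 2 (adjusted p = 0.053 to 0.14), with a pseudocount of 0.1 (0.093), with no filter (0.11) and after quantile normalisation (0.4). MYH8 had 330.5 and 311 FPKM in muscle at month 2 and did not pass the test between months (0.14, adjusted p = 0.96). The plot of sarcomere isoforms shows these levels by library.

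**Figure D5:**
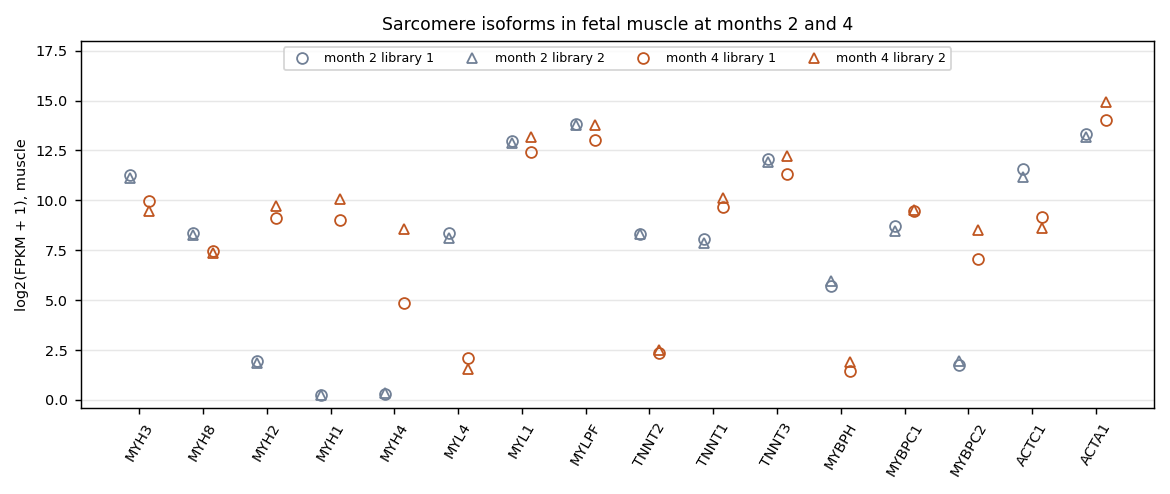
Level of 16 sarcomere genes in fetal muscle as log2(FPKM + 1), with 1 point per library (grey month 2, orange month 4, circles library 1, triangles library 2). MYH1, MYH2, MYH4 and MYBPC2 lie higher at month 4 and MYL4, TNNT2 and MYBPH lower, while ACTA1, MYL1 and TNNT3 are high at both months.

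Other genes with a changed difference were not of the sarcomere. CPLX1, a complexin of transmitter release, had 24.7 and 23.7 FPKM in muscle and 20.4 and 29.6 FPKM in brain at month 2, where it did not pass, and 0.0558 and 0.165 and 32.7 and 52 FPKM at month 4 (5.31, adjusted p = 1.1e-04). LPL, lipoprotein lipase, was higher in brain at month 2 (41.6 and 73.4 against 2.53 and 2.38 FPKM) and higher in muscle at month 4 (-4.82). The LPL call at month 4 was lost without muscle 1 (adjusted p = 0.053) or without brain 2 (0.089). SCD, a fatty acid desaturase, had 0.237 and 0.284 FPKM in muscle at month 2 and 43.8 and 30.8 FPKM at month 4, with 43.8 and 62 and 61.7 and 35.5 FPKM in brain (-4.97). PTH2 was listed at 0 in muscle at month 4, had 1.51 and 0 FPKM in muscle at month 2, and had 10.9 and 13.7 FPKM in brain at month 4, against 0 and 0 FPKM in brain at month 2 (4.47). Of the plasma proteins of the liver, ALB had 32.1 and 25 FPKM in muscle at month 2 and 4.09 and 0.0809 FPKM at month 4 (4.51), and APOA2 23.4 and 19.3 and 0.636 and 0 (4.87). ALB was not called with no filter (adjusted p = 0.069), without brain 2 of month 4 (adjusted p = 0.06) or without muscle 1 or 2 of month 2 (adjusted p = 0.068 and 0.055).

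By list, adipocyte genes moved towards muscle in 9 of 9 tested and macrophage and microglial genes towards brain in 10 of 15, against 6.61% and 7.39% of all genes. C1QA, a complement gene of macrophages, had 45.6 and 44 FPKM in muscle and 3.07 and 1.92 FPKM in brain at month 2 against 13.9 and 15.1 and 6.48 and 9.7 FPKM at month 4 (3.02). The sums of the macrophage list in brain were 23.7 and 18.2 FPKM at month 2 and 67.7 and 93.8 at month 4. Ribosomal protein genes moved towards brain in 35 of 52, and all 52 had been higher in muscle at month 2, when the list summed to 117000 and 116000 FPKM in muscle and 34600 and 28400 in brain. Muscle at month 4 had 41500 and 42700 FPKM. Synaptic genes moved further towards brain in 8 of 27, and GFAP by 2.33 (lost with a pseudocount of 0.1, adjusted p = 0.058). Thin filament and Z-disc genes moved further towards muscle in 15 of 45 and coupling genes in 10 of 29. With a pseudocount of 0.1, the calls of ACTN3, LDB3, NEB, TMOD4, ATP2A1 and CASQ1 were lost (adjusted p = 0.073 to 0.28). Over all genes, 78.8% of the calls of the difference of differences were kept with that pseudocount and 39.7% with no filter. Cell cycle genes passed in neither direction, 0 of 20.

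Newborn wild-type brain and muscle lie in a separate table from 2 animals, each the mean of 2 libraries, and are given side by side with no test across tables. There, 7719 of 13562 genes (56.9%) passed, 5094 (37.6%) higher in brain and 2625 (19.4%) higher in muscle. Of genes tested in both, 4188 were higher in brain in both, 82.1% of those at month 4 and 84.8% of those in the newborn, and 1913 were higher in muscle, 71.2% and 77.7%. The order of the tissues was opposite in 19 and 21 genes. MBP was one of them, with 332 FPKM in newborn brain and 21.7 FPKM in newborn muscle (3.28) against -2.80 at month 4. Of 15 myelin and oligodendrocyte genes, 13 were higher in newborn brain, against 5 at month 4. Of 15 macrophage and microglial genes, 7 were higher in newborn brain and 0 in newborn muscle. Embryonic MYH3 stood at 9.21 FPKM in newborn muscle and perinatal MYH8 at 73.1 FPKM. GFAP stood at 323 FPKM in newborn brain. Cell cycle genes passed in neither direction in the newborn, with 7 of the list tested.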

How the data were processed

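RNA was sequenced from ground tissue after TRIzol extraction and library construction with a TruSeq kit, per the labels' protocols. The authors deposited FPKM values in a fetal table and a separate newborn table of 28141 genes each. CASAVA, HISAT 0.1.6 and Cufflinks 2.0.2 are named per the submitters' processing notes. The genome build, the annotation and the strandedness were not given in the sources used here. No coordinates or sequences are printed, and overlapping, antisense and near-identical genes cannot be separated. Of 11294 LOC identifiers, 721 took a symbol from a RefSeq gene table, which served for names and nothing else.

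Values were taken as log2(FPKM + 1), and genes with a mean of 1 FPKM or more were fitted with limma 3.58.1 in R 4.3.3 (lmFit, eBayes with a trend), brain minus muscle, over the 4 libraries of month 4. Genes passed at a p of 0.05 after Benjamini-Hochberg adjustment over all genes tested. The difference of differences used all 8 fetal libraries. Newborn values were averaged within each of 2 animals. The fit was tested on simulated data with differences planted in a small part of the genes, all of higher level. In the month 4 comparison itself 59.9% of genes passed, so the shares below hold for the simulated setting only. Noise followed each gene's moderated spread or raw spreads shuffled over genes, in that order below. The first of these is close to what limma itself assumes, and so favourable to the fit. At month 4, 100% and 79% of differences of log2 size 3 were recovered, and 55% and 0% of size 1. False calls were 5.49% and 1.25% of the calls. For the difference of differences the recovered shares were 100% and 80%, and 17% and 2%, with 6.4% and 3.53% false calls.

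Libraries were grouped by the labels. Library numbers 1 and 2 are not stated to pair the fetal tissues, so no block was used. Newborn brain and muscle carry the same animal names. Named genes were the 15 largest differences in each direction, 8 in each direction for the difference of differences, members of each list by level, size of difference or opposite direction, and any member of the lists that are families of alternative forms. Cell type markers could also be named, as NPPA and COL2A1 were. The gene lists, like the comparison itself, were chosen with earlier results of these data known. Sex-linked genes were not analysed here, and some genes that these rules name are not reported here. Alternatives were another pseudocount, other filters, 2 other scalings, the library number as a block, 1 fit of all 8 libraries and leaving out each library. Those for month 2 and the newborn were chosen after seeing the data.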

Additional observations from a re-analysis of the deposited data

Results flagged for a closer look

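The difference between brain and muscle was not the same at months 2 and 4 by a test of the difference itself, the difference of differences over 8 libraries in limma. It was higher at month 4 in 1015 genes and lower in 908. Among genes named by rule, it was higher for MYL4 (6.66), TNNT2 (6.15), CPLX1 (5.31), APOA2 (4.87), ALB (4.51), PTH2 (4.47), MYBPH (4.41) and MYL5 (4.26) on the log2 scale. It was lower for MYH1 (-9.04), MYH2 (-7.17), MYH4 (-6.19), MYBPC2 (-5.56), NRAP (-5.38), SCD (-4.97), LPL (-4.82) and GADL1 (-3.76). With 2 libraries per tissue and month, no group was large enough for a search for single outlying libraries.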

How the results depend on the processing

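In the month 4 comparison the calls of 5324 genes higher in brain and 2925 higher in muscle stayed within 1.5 times under every alternative run except 1: with a filter at 5 FPKM, 1885 genes were higher in muscle, out of 8569 tested in place of 13782. Leaving out each library gave 3625 to 5183 genes higher in brain and 2255 to 2549 higher in muscle. No gene called at month 4 was called with the other sign under any of these settings. Of 266 named genes called at month 4, 238 were called in every setting in which they were tested. Some of these fell under a filter in some settings and were not tested there. MYL4 and HK2, for example, were tested in 9 of 11 settings. Some named genes that did not pass in the main fit were called in other settings, TPM4, EGR1 and APOE among them. The difference of differences was less stable. It counted 617 and 453 genes with no filter, against 1015 and 908, over 23869 genes tested in place of 13742. Leaving out each library gave 226 to 1110 genes higher and 180 to 1337 lower, and the difference of differences of SST was -0.74 with a pseudocount of 0.1 (adjusted p = 0.1), against 1.55. Leaving out 1 library gave 5004 to 6237 and 2436 to 3727 calls at month 2. In the newborn it gave 3019 to 4647 and 1205 to 2262, and quantile normalisation gave 3939 genes higher in muscle against 2625. The cause of each shift other than the number of genes or libraries was not tested.

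With the library number as a replicate block, month 4 gave 6340 genes higher in brain and 3479 higher in muscle, and all 8249 calls were among them. The difference of differences gave 1028 and 1093, month 2 gave 6667 and 3549 and the newborn, where the block is the animal, 5343 and 2882. At month 4 the deviations of same-numbered brain and muscle libraries from their tissue means correlated at 0.365 across genes, which with 1 pair of deviations is a description. FPKM carries no depth, and values under about 1 FPKM in brain or muscle limit each fold.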
